A study of Homo sapiens with 6 samples.

Results

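PRDM16 was described by every differentially methylated region that the authors' 3 lists place at chromosome 1: 3068000-3440000 (hg38), which is the gene with about 1 kb on each side. The members were thus chosen by the authors' calls in these lists, that is, by their differences in level. The lists hold 16 such regions among 4344 in all, 7 in pair 1, 6 in pair 2 and 3 in pair 3. The cells were HepG2, a widely used line from a human hepatocellular carcinoma, and their methylation was read by reduced representation bisulfite sequencing (RRBS), in which MspI cuts DNA at CCGG to favour CpG-rich fragments and bisulfite converts unmethylated cytosines. DNMT3A, a de novo DNA methyltransferase, was overexpressed from a lentivirus in the overexpressing group, while the control group received a control lentivirus and is labelled WT. Each group has 3 libraries, and pairs 1, 2 and 3 each set an overexpressing library against the control with that number. The labels name neither the promoter that drives DNMT3A nor separate cultures or clones, so the SDs between libraries may be technical.

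PRDM16 encodes a zinc finger transcription regulator with a PR domain, a relative of the SET domain of histone methyltransferases. It is best known from mice, where it drives the brown fat programme together with partners such as PPARGC1A, CEBPB and CTBP proteins, and from blood stem cells and heart muscle. The human gene was first found at a chromosome breakpoint in leukaemia. Methylation near a gene start often goes with a silent gene, whereas methylation inside a gene body has no such simple relation to its activity. Expression of PRDM16 was not analysed here.

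Since the differences below chose the regions, they are given as descriptions, with no test. Mapped reads ranged from 25764323 to 29924507 per library and the mapping rate from 75.96% to 76.88%. The reads behind each regional level are not in the lists, so the depth of each value is unknown and no interval is given.

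Every listed region of PRDM16 was more methylated in the overexpressing library than in its control. All 7 regions of pair 1, all 6 of pair 2 and all 3 of pair 3 were gains, beside 82.1%, 81.7% and 81.1% of the regions in the whole lists and 81.6% of all 4344 regions together. This direction is common among genes with many regions: of the 18 protein-coding genes with at least 10 listed regions, 13 had gains only. Over the 16 regions the difference ranged from 0.157 to 0.477 with a median of 0.262, beside a median of 0.265 over all listed gains. The median level was 0.540 in overexpressing libraries and 0.216 in controls, against 0.512 and 0.195 over all listed gains. The CpG-weighted mean difference per pair averaged 0.245 ± 0.0269 (SD, n = 3 pairs). Each pair's mean is over its own listed regions, so this SD also holds the differences in which regions were called. Over only the regions listed in all 3 pairs, a setting that was not planned, it was 0.227 ± 0.0192 (SD, n = 3 pairs).

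The 16 regions merged into 10 distinct ones that together cover 1878 bp, 0.508% of the gene's length. Of these, 2 were listed in all 3 pairs (20%) and a further 2 in exactly 2 pairs, beside 8.21% of all 3313 distinct regions in 3 pairs. Listed in 2 or 3 pairs were 4 of 10 in PRDM16 (40%), beside 21.8% of all distinct regions. With 10 regions these shares are small counts, and they carry no test.

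The gains lay at the gene start and in its distal part, with nothing listed between them. PRDM16 spans 369 kb, from 3069203 to 3438621. A single region covers the start, and the next begins 225 kb inside the gene, so the other 15 listed regions, 9 of them distinct, fall in the last 39.2% of its length. The stretch without a listed region holds, among other annotated genes, the microRNA gene MIR4251 and the long noncoding RNA genes LOC105378606, LOC107984909 and LOC105378605. It cannot be told whether RRBS fragments there were read and not called, or not read.

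**Figure D1:**
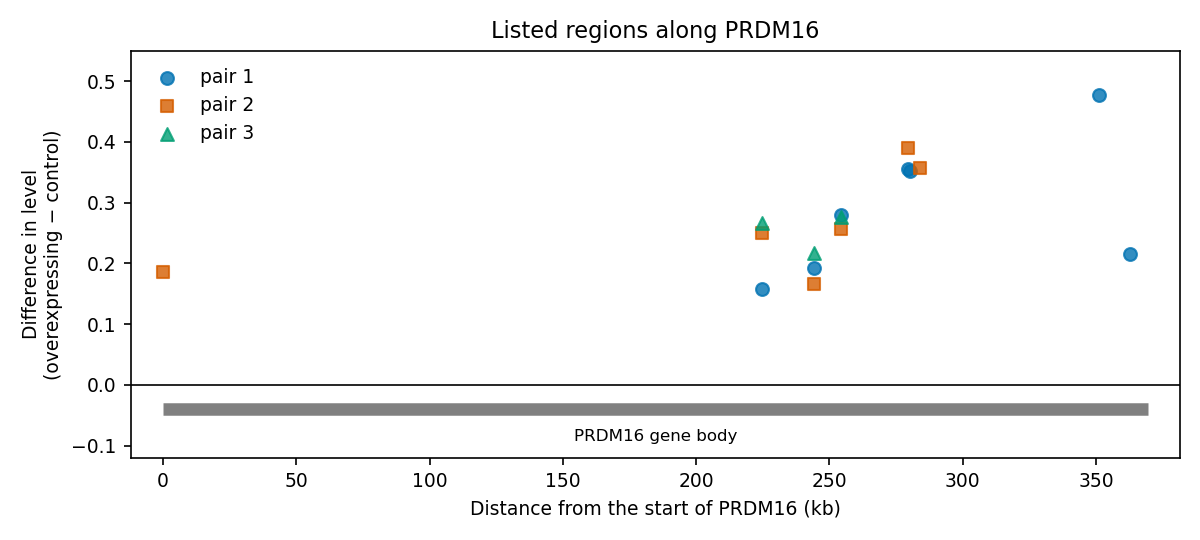
Each point is a listed region, placed by its distance from the start of PRDM16 (kb) and by the difference in methylation level, overexpressing minus control (fraction). Circles, squares and triangles stand for pairs 1, 2 and 3, and the grey bar is the gene. All 16 points lie above 0, and 15 of them lie in the last 39.2% of the gene.

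The sequence of 1 of the 2 regions listed in all 3 pairs could be read, because it lies beside the start of LOC105378604, a long noncoding RNA gene inside PRDM16 on the minus strand. It is shown because it has a gain in every pair and because it tells how the lists count CpG sites. The plus strand of chr1:3323519-3323697, the extent listed in pair 2, is given 5′ to 3′ from RefSeq's promoter table (GRCh38.p14), with each CpG in capitals.

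PRDM16 distal gain beside LOC105378604: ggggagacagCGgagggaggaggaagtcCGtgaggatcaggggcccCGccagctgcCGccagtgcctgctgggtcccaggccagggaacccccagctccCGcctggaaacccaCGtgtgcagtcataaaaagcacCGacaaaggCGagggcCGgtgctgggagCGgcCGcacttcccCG

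This stretch of 179 bases holds 12 CpG pairs, while the list gives it 25 CpG sites. Its first base is the G of a further CpG, and counting the cytosines of both strands gives 25. Across all 3 lists, 113 regions lie inside a promoter window of the same table. None of them lists more sites than the CpG cytosines of both strands, 71 list exactly that number, and 109 list more than the CpG pairs. The CpG sites of the lists are therefore given here as CpG cytosines, with the strands apart. The stretch holds 1 CCGG, the MspI site, which reads the same on both strands. The promoter window of 300 bases that holds the stretch has 2 CCGG, and at least 1 is present in 63.1% of 35116 such windows in the table. Because RRBS cuts DNA at CCGG, this share is no background for regions that RRBS could read.

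The methylation level of this region was 0.685, 0.624 and 0.617 in overexpressing libraries 1, 2 and 3, against 0.406, 0.368 and 0.340 in control libraries 1, 2 and 3. Every overexpressing library lay above every control, as in 95.6% of the regions listed in all 3 pairs, whose calling favours such a separation. The means were 0.642 ± 0.0378 in overexpressing cells and 0.371 ± 0.0331 in controls (SD, n = 3 each). The difference was 0.279, 0.256 and 0.277 in pairs 1, 2 and 3, a mean of 0.271 ± 0.0128. The region starts at 3323519 in each list but ends at 3323822 in pair 1, 3323697 in pair 2 and 3323782 in pair 3, with 30, 25 and 27 CpG cytosines, so the levels are not taken over quite the same sites. In the RefSeq table it lies 22 to 325 bp before the start of LOC105378604. Among the 264 regions that were higher in all 3 pairs, its mean difference ranked 142nd, and its control level of 0.371 stood above their median of 0.148.

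The other gain shared by all pairs reached a low level, at sites that were nearly unmethylated in controls. At chr1:3313191-3313410, 244 kb inside PRDM16, the level was 0.275, 0.211 and 0.296 in overexpressing libraries 1, 2 and 3, against 0.0831, 0.0437 and 0.0786 in control libraries 1, 2 and 3. The groups did not overlap, with means of 0.260 ± 0.0443 in overexpressing cells and 0.0685 ± 0.0216 in controls (SD, n = 3 each). Among regions listed in all 3 pairs, 95.6% show such a separation, which their calling favours. The difference averaged 0.192 ± 0.0250 and ranked 226th among the 264. Its boundaries were identical in the 3 lists, at 220 bp, but it held 36 CpG cytosines in pairs 1 and 3 and 33 in pair 2, so not every cytosine counted in every pair. It lies inside LOC105378604, 394 to 613 bp past another annotated start of that gene at 3313804.

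The 2 shared regions lie 10.1 kb apart and ended at different levels. Overexpressing libraries reached 0.617 to 0.685 at the distal one and 0.211 to 0.296 at the one inside LOC105378604, so that at the region inside LOC105378604 the highest level with DNMT3A stayed below the lowest control level of the distal region, 0.340.

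A region listed in pairs 2 and 3 lies 225 kb inside PRDM16, where RefSeq also annotates the protein-coding model LOC124903828. Its merged extent is chr1:3293924-3294064, listed as 3293981-3294064 with 7 CpG cytosines in pair 2 and as 3293924-3294063 with 12 in pair 3. Over these unlike extents the level was 0.514 and 0.480 in overexpressing libraries 2 and 3, against 0.264 and 0.213 in control libraries 2 and 3. In pair 1 a neighbouring stretch was called instead, chr1:3293847-3293914, which ends 9 bp before the merged extent. That stretch stood at 0.260 in overexpressing library 1 and 0.102 in control library 1, the smallest difference of the 16, at 0.157. Joining regions up to 100 bp apart, a choice made after seeing the data, turns them into 1 region listed in all 3 pairs. PRDM16 then has 3 of 9 distinct regions in all pairs (33.3%), beside 8.56% of 3248 over the series.

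A group of gains without a call in pair 3 lies 280 kb inside PRDM16. Its regions hold 5.33 to 7.82 CpG cytosines per 100 bp, beside a median of 10.8 over all listed gains. Within 4.396 kb the lists hold 3 distinct regions. Of them, only chr1:3348753-3348833 was called in both pairs 1 and 2. The region chr1:3349050-3349484 was called in pair 1 only and chr1:3353003-3353148 in pair 2 only. At chr1:3348753-3348833 the level was 0.540 in both overexpressing library 1 and overexpressing library 2, against 0.184 and 0.149 in control libraries 1 and 2. This is the largest difference seen in more than 1 pair in PRDM16, 0.356 in pair 1 and 0.390 in pair 2, but it rests on 4 and 6 CpG cytosines. The list for pair 1 starts this region at 3348759. Next to it, chr1:3349050-3349484 was the longest region of the gene, 435 bp with 34 CpG cytosines, and stood at 0.601 in overexpressing library 1 and 0.250 in control library 1. At chr1:3353003-3353148 the level was 0.536 in overexpressing library 2 and 0.179 in control library 2. Pair 3 listed 18.8% of the regions of PRDM16, against 32.9% of all listed regions. Overexpressing library 3 had the fewest mapped reads of the 6, 25764323; the part of depth in this was not tested.

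**Figure D2:**
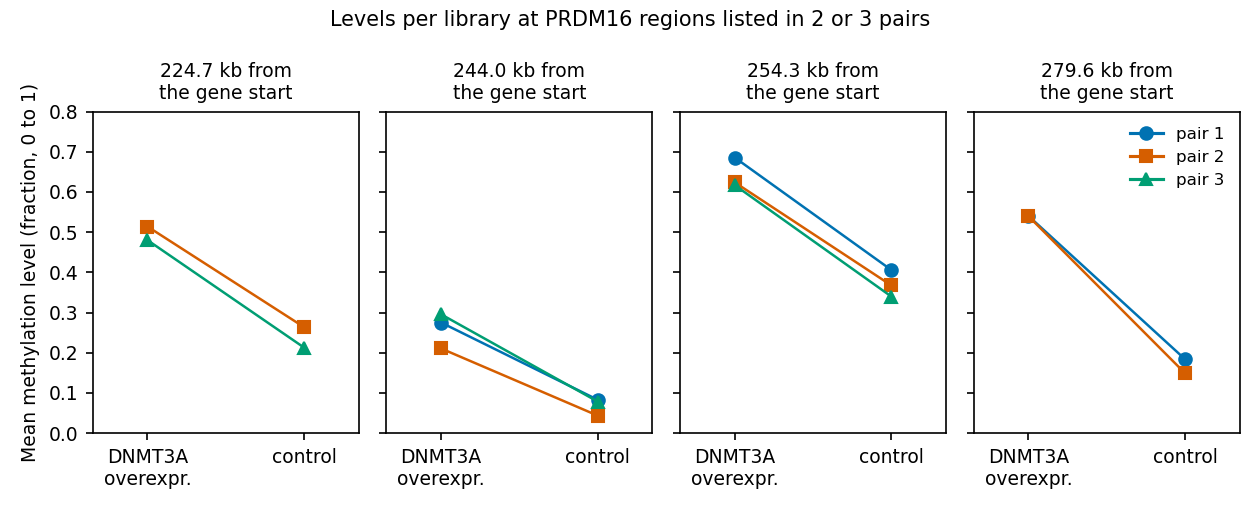
Mean methylation level (fraction, 0 to 1) in overexpressing (left) and control (right) libraries at the 4 PRDM16 regions listed in 2 or 3 pairs, named by distance from the gene start. Lines join the libraries of a pair, and a pair without a listed region has no line. Levels are higher in the overexpressing library in each pair shown, and the region at 244 kb is the lowest in both groups.

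The largest gain of all and the most distal one were each listed in pair 1 only. At chr1:3420332-3420401, 18.2 kb before the end of PRDM16, the level was 0.695 in overexpressing library 1 and 0.219 in control library 1, a difference of 0.477 over 6 CpG cytosines. At chr1:3431774-3431868, 6.75 kb before the end, it was 0.542 in overexpressing library 1 and 0.327 in control library 1. These have no replicate check.

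The start of PRDM16 itself was listed in pair 2 only. The region chr1:3069014-3069331 reaches from 189 bp before the annotated start to 128 bp past it, and is the most CpG-dense of the gene, with 69 CpG cytosines in 318 bp. Its level was 0.583 in overexpressing library 2 and 0.397 in control library 2, so the start was already partly methylated in that control. A promoter gain at PRDM16 is thus recorded by 1 of 3 pairs. The levels of the other 4 libraries there are not in the lists, and RefSeq also annotates the protein-coding model LOC124903827 across this stretch. The largest gain of pair 2 was at chr1:3348753-3348833, and that of pair 3 was at the distal shared region.

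Among the listed regions of the gene, denser ones gained less. The differences also chose these regions, so the order describes called regions only and carries no test. The 8 listed regions with at least 10 CpG cytosines per 100 bp differed by a median of 0.204 (range 0.157 to 0.277), and the 8 sparser ones by 0.354 (0.250 to 0.477). Both classes count calls per pair, so a region called in several pairs enters more than once. The region inside LOC105378604 is dense in pairs 1, 2 and 3. The distal shared region falls on both sides of the cut, sparse in pair 1 at 9.87 per 100 bp and dense in pairs 2 and 3. Median levels in overexpressing libraries were 0.419 for dense and 0.540 for sparse regions, against 0.215 and 0.216 in controls. The same order holds over all listed gains, with medians of 0.226 for dense and 0.323 for sparse regions. Spearman's rho between density and difference was -0.79 over the 16 regions of PRDM16 and -0.56 over all 3546 listed gains. Several of the 16 points are the same region in different pairs, and over the 10 distinct regions rho was -0.78. The number of CpG cytosines of a region moved the same way, with a rho of -0.53 against the difference over the 16 regions, and its part in this order was not tested.

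**Figure D3:**
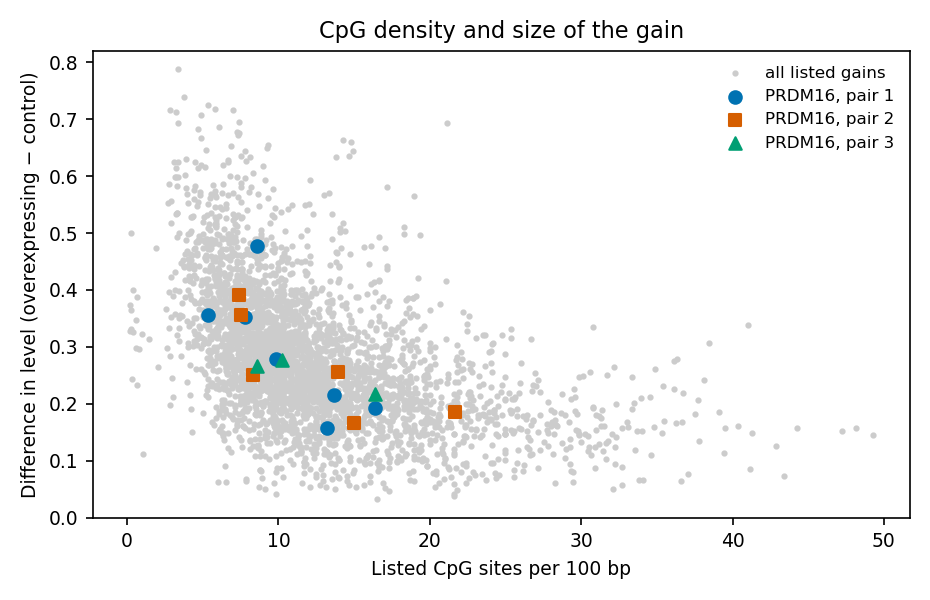
Difference in methylation level, overexpressing minus control (fraction), against listed CpG sites (CpG cytosines of both strands) per 100 bp. Coloured symbols are the 16 PRDM16 regions by pair and grey points all listed gains. The PRDM16 regions under 10 per 100 bp lie at 0.250 to 0.477 and the others at 0.157 to 0.277. The distal shared region has points on both sides of this cut.

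Among protein-coding genes, 1773 of 20056 (8.84%) had a listed region within 1 kb, and PRDM16 ranked 7th of them with its 16, against a median of 1. It is also long, 563rd in length among the 20056 genes, and with 4.33 regions per 100 kb it ranked 703rd. Among the 185 genes of at least 300 kb with a listed region, whose median was also 1, it ranked 3rd. The gene was chosen with these lists in view, so its rank is a description.

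The gene whose counts of gains and losses per pair were most like those of PRDM16 was BCOR, a transcription corepressor gene. The measure was the Euclidean distance over 6 counts, higher and lower regions in each of the 3 lists. PRDM16 had 7, 6 and 3 gains and no loss, while BCOR (distance 2.00) had 6, 7 and 3 gains and 2 losses. GSE1 followed (2.83), with 5, 7 and 4 gains and 2 losses. The developmental transcription factor genes BCL11B and NFIX both came next at 3.61, with gains only, 21 and 11 of them. KCNQ1, a potassium channel gene, was at 3.74 with 11 gains and 1 loss.

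PRDM16 was set beside PTPRN2, NFIX and BCL11B for how its gains were spread. PTPRN2, a longer gene of 1049 kb, had 26 gains at 22 distinct regions, and none was listed in all 3 pairs. NFIX had 11 gains at 4 distinct regions, 3 of them in all pairs, and BCL11B had 21 gains at 12 distinct regions, also with 3 in all pairs. PRDM16, with 10 distinct regions and 2 in all pairs, lay between them in both counts. These differences were not tested.

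**Figure D4:**
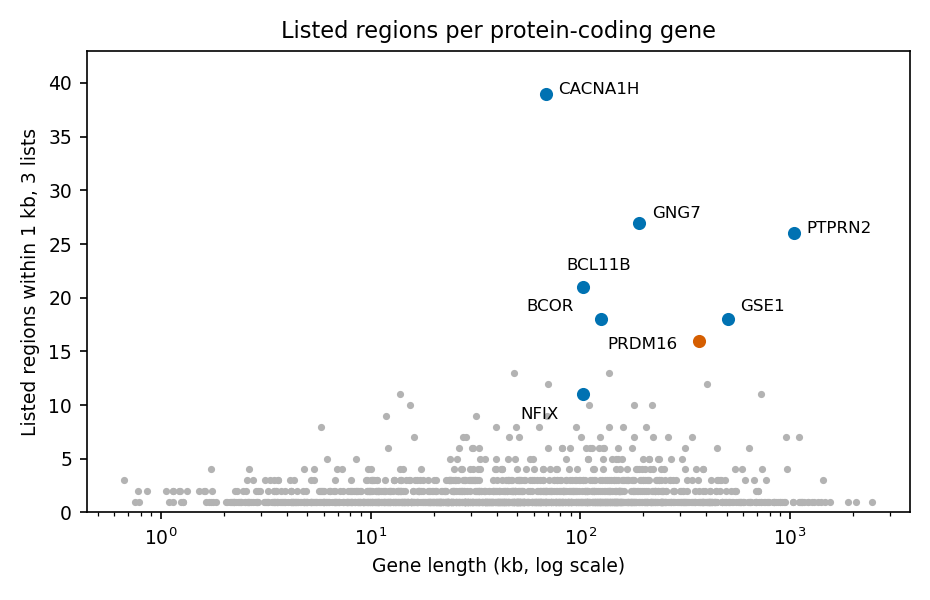
Number of listed regions within 1 kb over the 3 lists against gene length (kb, log scale) for the 1773 protein-coding genes with at least 1. PRDM16 is orange, and other genes with many regions are blue and labelled. PRDM16 stands at 16 regions, 3rd among the 185 plotted genes of at least 300 kb.

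The shared regions of other genes closest in level over the 6 libraries were in CDK14 (chr7:90766855-90766918) for the low region inside LOC105378604, and in HDGFL2 (chr19:4474238-4474350) for the distal one. The root mean square difference per library was 0.0216 for CDK14 and 0.0301 for HDGFL2. Next were a region beside FRMD8 and SLC25A45 (0.0296) and one in BCOR (0.0309) for the low region, and regions in BCL9L (0.0317) and ASAP2 (0.0483) for the distal one.

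Of 17 relatives of PRDM16, the other PRDM genes with MECOM, ZFPM1 and ZFPM2, 4 had a listed region (23.5%, beside 8.84% of all protein-coding genes). ZFPM1, a GATA cofactor gene, held the 1 gain listed in all pairs. At chr16:88508835-88509511, the extent in pair 1, its level was 0.496, 0.469 and 0.493 in overexpressing libraries 1, 2 and 3, against 0.126, 0.136 and 0.163 in control libraries 1, 2 and 3. The lists for pairs 2 and 3 end this region at 88508980. The groups did not overlap, as in 95.6% of the regions listed in all 3 pairs, whose calling favours such a separation.

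PRDM11 was listed in opposite directions over extents that both start at chr11:45180341 but end at 45180474 in pair 1 and 45180419 in pair 2. In pair 1 the level was 0.595 in the overexpressing and 0.259 in the control library, and in pair 2 it was 0.363 in the overexpressing and 0.595 in the control library. PRDM8 had 1 gain and PRDM13 had 1 loss, both in pair 2. MECOM, the closest relative of PRDM16, had no listed region.

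Of 27 genes of PRDM16's partners and of the brown fat programme, 2 had a listed region (7.41%), each in 1 pair, a share near the 8.84% of all protein-coding genes. SKI, a repressor of TGF-beta signalling, stood at 0.532 in overexpressing library 1 and 0.320 in control library 1. EHMT1, a histone H3 lysine methyltransferase gene, was a loss, at 0.290 in overexpressing library 2 and 0.950 in control library 2, over 4 CpG cytosines. No region was listed in PPARG, PPARGC1A, CEBPB, CTBP1, CTBP2 or UCP1, which says only that none was called there.

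Of 44 other genes of any kind annotated within 500 kb of PRDM16, 8 had a listed region within 1 kb (18.2%), beside 4.19% of all 59792 annotated genes. The regions of 4 of these 8 were all among the 16 of PRDM16, which those genes overlap or adjoin, and the other 4 had regions outside the interval. Of these other 4, LOC105378608 had only a region that is also counted for MEGF6. Genes thus share regions in this count. The nearest listed regions outside the interval lie 17.5 kb beyond its upper end in pair 3, 17.6 kb in pair 2 and 40.5 kb in pair 1, all in ARHGEF16, a guanine nucleotide exchange factor gene. Below the lower end the nearest lies 258 kb away in pair 3 and more than 510 kb away in the other pairs. ARHGEF16 had gains only, and 1 of its regions was listed in all pairs. At chr1:3480471-3480661 the level was 0.257, 0.325 and 0.313 in overexpressing libraries 1, 2 and 3, against 0.109, 0.111 and 0.121 in control libraries 1, 2 and 3. The list for pair 1 ends this region at 3480605, with 27 CpG cytosines beside 34 and 33 in pairs 2 and 3. Just inside the interval's ends are the PRDM16 start region and the most distal gain described above.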

How the data were processed

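Per the labels' protocols, HepG2 DNA, mixed with some lambda DNA, was digested with MspI, joined to methylated adapters and bisulfite-treated; hg38 is the build per the submitters' processing notes. The sources used here name no aligner, region caller or threshold. Per the file headers, the authors' lists give each region's mean level per library as a fraction, a deposited count of CpG sites, its length, a signed difference and an area score. The mapping rates are the authors' deposited percent values and reads are deposited counts.

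Regions overlapping by at least 1 bp were merged, and a pair's value is the mean weighted by CpG sites (Python 3.11.15, pandas 2.3.3). Genes and sequences came from RefSeq GRCh38.p14. Merging and gene counts were tested on simulated lists. The gene, lists and comparisons were chosen with earlier results of these data known. Regions described in full are those in 2 or 3 pairs and the largest of each pair; the other 5 distinct regions were described after their values were seen. Alternatives covered the interval, thresholds, weights, overlap and each pair left out.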

Additional observations from a re-analysis of the deposited data

How the results depend on the processing

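All 16 listed PRDM16 regions were gains and no alternative added a region, so the direction could not change and was not put to a check. The number of listed regions was 16 with no margin or with one of 10 kb, and 15 with at least 6 CpG sites. It was 12 with an absolute difference of at least 0.2 and 9 above the median area score of each list. Leaving out a pair gave 9 (without pair 1) to 13 listed regions, with 10 without pair 2, and 6 (without pair 1) to 10 distinct ones. Regions in 2 or more pairs numbered 2 (without pair 2) to 3. At the 0.2 limit only the distal region was in all 3 pairs (1 region), since the low one differed by less in pairs 1 and 2, and the mean difference was 0.285. It was 0.232 to 0.259 without 1 pair. The rank among genes was 5 to 7 without 1 pair and 703 per 100 kb. A reciprocal overlap of 50% left 10 distinct regions. No paired analysis was possible because the differences within pairs chose the regions, so no test, with or without pairing, was run on them; they are given as values with their SD.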

Other observations

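MEGF6, an EGF-like domain gene beyond ARHGEF16 on the same side of PRDM16, was listed in both directions, unlike PRDM16. It had 7 gains and 6 losses over the 3 lists, at 12 distinct regions. Its only region met by more than 1 pair was listed over unlike extents, so the levels are not over the same sites. In pair 3, chr1:3523166-3523315 (12 CpG cytosines) stood at 0.238 in overexpressing library 3 and 0.561 in control library 3. In pair 2, the shorter chr1:3523264-3523314 (5 CpG cytosines) stood at 0.694 in overexpressing library 2 and 0.353 in control library 2. TP73, a p53 family gene farther along, had 2 gains, both in pair 3.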
